A study of Drosophila melanogaster with 9 samples.

Results

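The genes described here are those of DNA replication and entry into S phase, a set of 34 listed by symbol. Of these, 29 were measured by a probe set with 1 gene symbol, out of 11982 genes tested. Mcm7, Orc6, RnrS and geminin had no named probe set, and the probe set of E2f1 also carried the symbol of another gene, so these 5 were not analysed here. Each of the 29 had a single probe set. RNA was measured on 9 Affymetrix arrays in cells of Drosophila wing imaginal discs, the larval epithelial sacs that give rise to the adult wing, from larvae about 8 days old on a w1118 background. All cells came from discs that carried the en-gal4 driver, constructs for p35, for a dsRNA form of asp and for RFP, and an MMP1-GFP reporter. The driver is active in the posterior compartment, so p35 (a viral caspase inhibitor), the dsRNA against asp (a spindle pole gene) and RFP were made there. Delaminating cells were RFP-positive and MMP1-GFP-positive, posterior cells were RFP-positive and MMP1-GFP-negative, and anterior cells, which do not express the driven constructs, were negative for both. There were 3 biological replicates of each population, and the series holds no discs without the dsRNA.

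Eukaryotic DNA replication starts when the origin recognition complex, with Cdc6 and Cdt1 (the product of dup in flies), loads the MCM helicase onto DNA. Cyclin E with its kinase then starts the helicase together with the GINS complex, the clamp loader places the PCNA ring on DNA, and RPA covers the unwound strands. In fly imaginal discs many of these genes are transcribed under the control of E2f1 and its partner Dp, so that their RNA is associated with cycling cells.

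The labels were first checked on compartment genes. The posterior selector gene en lay between 10.01 and 11.03 in delaminating cells, between 10.45 and 10.64 in posterior cells and between 6.88 and 7.49 in anterior cells (log2 signal, 3 arrays each). The 5 measured markers of disc epithelium averaged 10.94 to 11.28 on every array. Of the 9 arrays, anterior replicate 3 stood apart, with a correlation of 0.889 to 0.915 with the others across genes, against 0.943 to 0.987 among the other 8. Its upper quartile of signals was also lower, at 8.93 against 9.27 to 9.35 on the other arrays. Delaminating replicate 2 had the highest mean of 13 hemocyte (larval blood cell) markers, 9.97 against 7.02 to 8.61 on the other 8 arrays. For the 29 replication genes, values without either array are given beside the groups of genes and the larger differences that move with it.

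**Figure D1:**
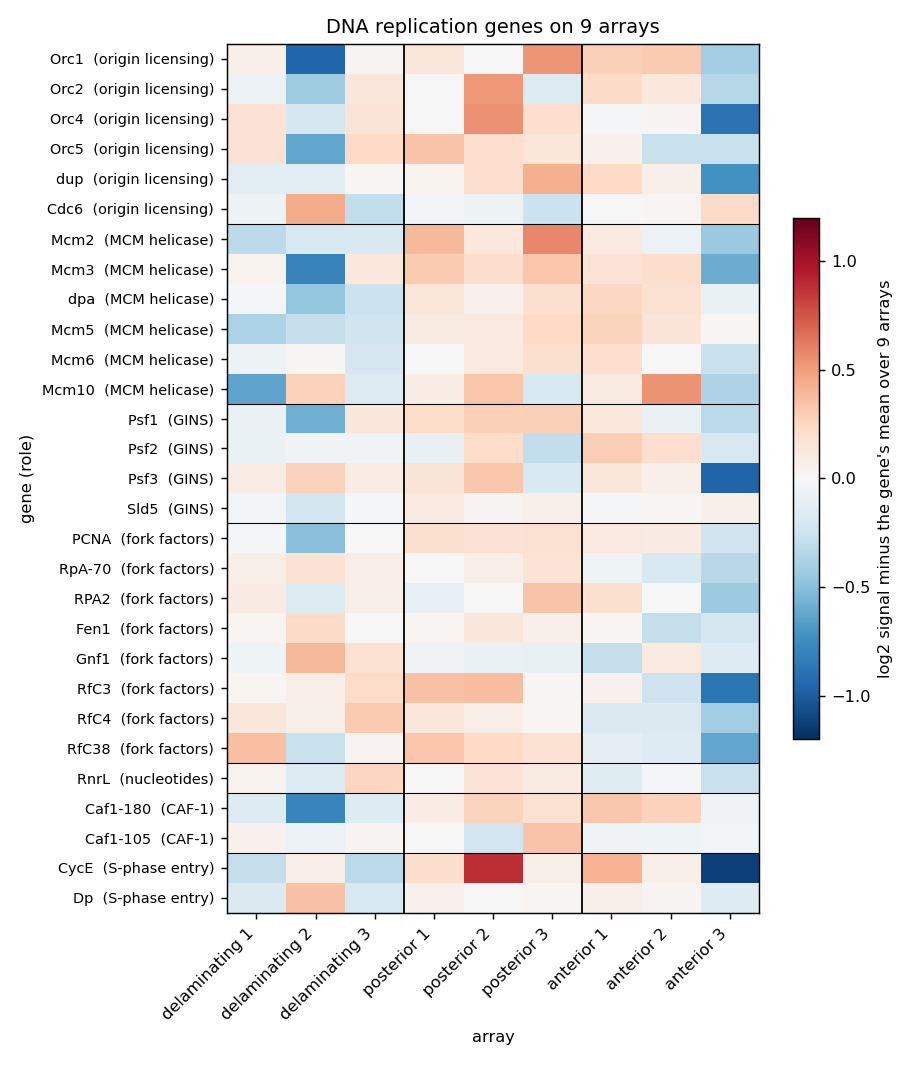
Log2 signal of each of the 29 replication genes (rows, with their role) on each of the 9 arrays (columns), minus that gene's mean over the 9 arrays. Anterior replicate 3 has the lowest value of its group for 24 of the 29 genes, while delaminating replicate 2 has the lowest of its group for 16 and the highest for 10.

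The median signal of the replication genes was highest in posterior cells. The median signal of the 29 genes was 9.62, 9.28 and 9.71 in delaminating cells, 9.88, 9.79 and 9.90 in posterior cells, and 9.72, 9.55 and 9.09 in anterior cells. Every posterior array thus lay above every array of the other populations in this median. Gene by gene, the mean was highest in posterior cells for 20 of the 29, in delaminating cells for 5 and in anterior cells for 4. The share of all genes with this order is not given here. Of all genes, 60.7% lay higher in posterior than in anterior cells, and 50.5% lay lower in delaminating than in posterior cells. Between posterior and anterior cells the median difference was 0.19 for the 29 genes and 0.17 for the 5991 brightest genes, which include 23 of them. The posterior population had the highest mean for 14 genes, the anterior population for 11 and the delaminating population for 4 when delaminating replicate 2 and anterior replicate 3 were left out. The lowest mean was then in delaminating cells for 18 genes and in anterior cells for 11. The genes varied little between posterior arrays, with a median SD of 0.10 (n = 3). It was 0.21 in delaminating and 0.23 in anterior cells. Over all genes the median SD was 0.22 in delaminating, 0.17 in posterior and 0.32 in anterior cells.

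**Figure D2:**
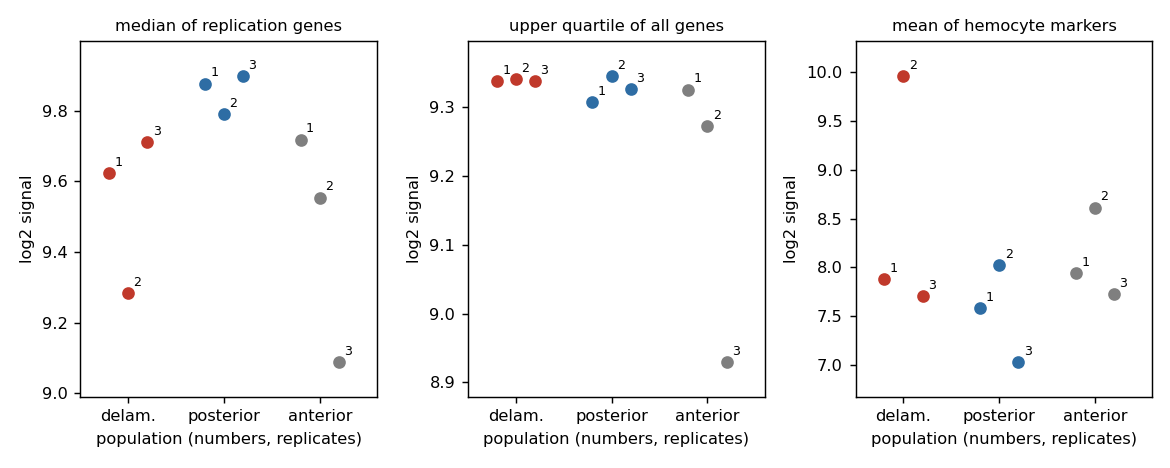
Median log2 signal of the 29 replication genes, upper quartile of all genes and mean log2 signal of 13 hemocyte markers on each array, by population, with replicate numbers beside the points. The posterior arrays have the highest medians of the replication genes, anterior replicate 3 has the lowest upper quartile and delaminating replicate 2 the highest hemocyte markers.

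The first comparison set delaminating cells against posterior cells, which express the same constructs but lack the reporter signal. The MCM helicase genes, counted here and below together with Mcm10, which helps to start the helicase, lay lower in delaminating cells. All 6 measured differences were below 0, and 4 of the 6 had no overlap between the groups. None of the 29 replication genes passed the test over all genes (limma, Benjamini-Hochberg adjusted p under 0.05), where 0.801% of all genes did (0.643% higher and 0.159% lower). At an unadjusted p under 0.05, 3 of the 29 were lower and 0 higher, against 9.98% of all genes in either direction (4.67% lower and 5.31% higher). Of the 29 differences, 22 were below 0, against 50.5% of all genes, and 7 above 0, against 49.5%. Their median was -0.21, against -0.0031 over all genes. For 9 genes every delaminating value lay below every posterior value, which held for 11.5% of all genes, and for 0 genes the reverse, which held for 10.7%. In these sorted populations fewer cells of a cycling kind and less RNA per cell cannot be told apart.

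**Figure D3:**
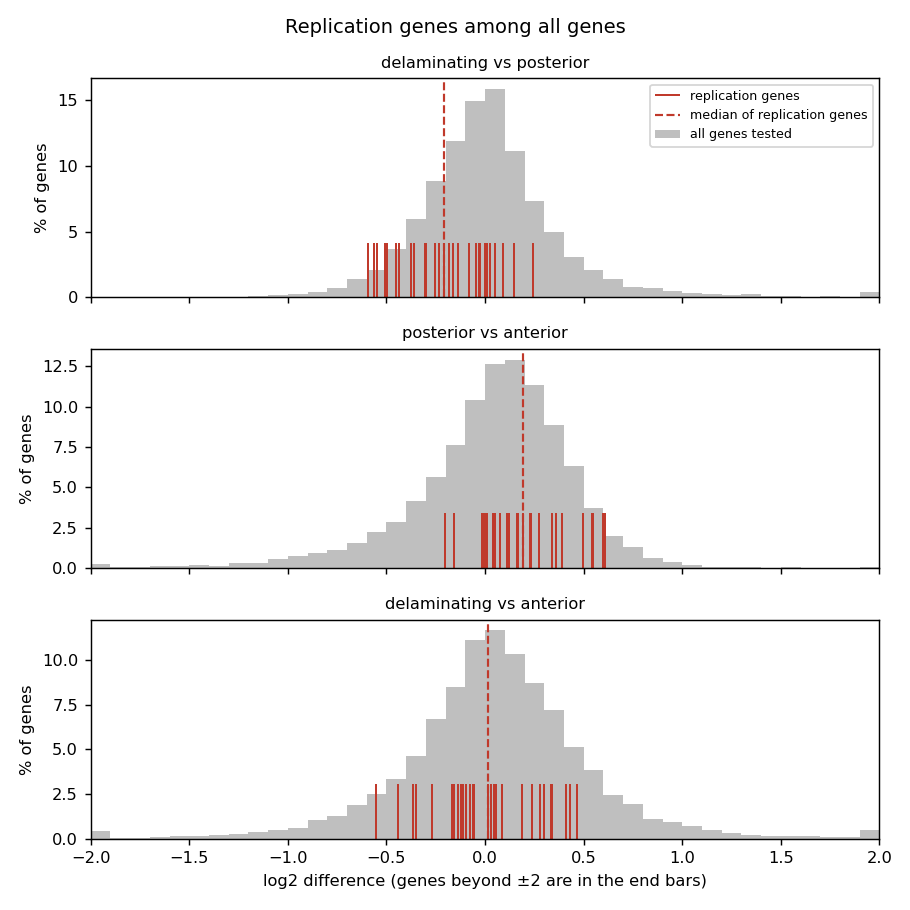
Distribution of log2 differences over all genes tested (bars, % of genes) with the 29 replication genes as red ticks and their median as a dashed line, for each comparison. The median of the replication genes is -0.21 for delaminating against posterior, 0.19 for posterior against anterior and 0.01 for delaminating against anterior cells.

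Mcm2, which encodes a subunit of the MCM ring, had log2 signals of 8.82, 8.94 and 8.95 in delaminating cells, against 9.52, 9.25 and 9.70 in posterior cells. The groups did not overlap, and the difference was -0.59 ± 0.19 (SE, adjusted p = 0.290). For Mcm5 the delaminating values were 10.05, 10.15 and 10.20, and the posterior values 10.53, 10.55 and 10.67. These groups were also separate, each within a narrow range, with a difference of -0.45 ± 0.15 (adjusted p = 0.297). Without delaminating replicate 2 the differences were -0.61 for Mcm2 and -0.46 for Mcm5, with adjusted p of 0.455 and 0.433. Anterior replicate 3 is outside this comparison but enters the pooled error. Without it the differences stayed at -0.59 ± 0.15 for Mcm2 and -0.45 ± 0.12 for Mcm5. Limma's adjusted p were then 0.0867 and 0.103, and 0 of the 29 and 2.35% of all genes were called. With limma's array weights, an alternative that gives arrays with a large spread less weight, both were called, at -0.65 (adjusted p = 0.0158, range over the alternatives 0.0158 to 0.666) and -0.49 (0.0215, range 0.0215 to 0.642). In that setting 6.25% of all genes were called, and 2 of the 29.

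The other helicase genes depended more on delaminating replicate 2. dpa, which encodes the Mcm4 subunit, had 10.09, 9.65 and 9.85 in delaminating cells, against 10.25, 10.16 and 10.30 in posterior cells, a difference of -0.38 ± 0.17. Mcm3 had 9.62, 8.78 and 9.71 in delaminating cells, against 9.89, 9.79 and 9.91 in posterior cells, a difference of -0.50 ± 0.29. Replicate 2 was the lowest delaminating array for both, and without it the differences were -0.27 for dpa and -0.20 for Mcm3. Mcm6 overlapped between the groups, with a difference of -0.18 ± 0.17. Mcm10, which helps to start the loaded helicase, differed by -0.25 ± 0.29, or -0.48 without delaminating replicate 2, and its signals lay below the array's lower quartile on 4 of 9 arrays, so they were not shown to be above background.

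Among the genes of origin licensing, 5 of 6 differences were below 0, and 6 of 6 without delaminating replicate 2, with a median of -0.27 on all arrays and -0.08 without it. Orc1, the largest subunit gene of the origin recognition complex, had 9.996, 8.99 and 9.97 in delaminating cells, against 10.08, 9.94 and 10.46 in posterior cells. The groups overlapped, delaminating replicate 2 was far below the other arrays, and the difference of -0.51 ± 0.31 was -0.18 without it. For dup, whose product loads the helicase with Cdc6, delaminating values of 9.35, 9.34 and 9.50 lay below posterior values of 9.52, 9.67 and 9.90, a difference of -0.30 ± 0.25 (adjusted p = 0.805). Orc2, Orc4 and Orc5, further subunits of the complex, differed by -0.24, -0.21 and -0.30, with overlapping groups, or by -0.08, -0.09 and -0.02 without delaminating replicate 2. Cdc6 had 7.17, 7.68 and 6.94 in delaminating cells, against 7.21, 7.17 and 6.98 in posterior cells. Its difference was 0.15 ± 0.21 and turned to -0.06 without delaminating replicate 2, the highest of the 9 arrays for this gene.

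The GINS complex joins the helicase at the fork, and the differences of its 4 genes ran from -0.43 to 0.05. Psf1 had 8.46, 7.96 and 8.67 in delaminating cells, against 8.76, 8.82 and 8.82 in posterior cells, a difference of -0.43 ± 0.21 that was -0.23 without delaminating replicate 2. Sld5 values of 9.47, 9.28 and 9.49 in delaminating cells lay just below those of 9.62, 9.54 and 9.56 in posterior cells. Its difference was -0.16 ± 0.15. Psf2 and Psf3 overlapped between the groups, with differences of 0.00 ± 0.19 and 0.05 ± 0.28, or -0.01 each without delaminating replicate 2. In that setting 4 of 4 GINS differences were below 0, with a median of -0.05.

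Genes of the moving fork lay close to 0, with 4 of 8 above it and a median of -0.04, or 2 of 8 and -0.03 without delaminating replicate 2. PCNA, the sliding clamp, was the exception to overlap, with 11.50, 11.01 and 11.51 in delaminating cells, against 11.71, 11.69 and 11.70 in posterior cells. The posterior arrays agreed within an SD of 0.01, and the difference was -0.36 ± 0.19 (adjusted p = 0.597), or -0.19 without delaminating replicate 2. Of the clamp loader subunits, RfC4 differed by 0.09 ± 0.16, RfC3 by -0.14 ± 0.24, RfC38 by -0.21 ± 0.21 and Gnf1, the large subunit, by 0.24 ± 0.18. Without delaminating replicate 2, RfC38 differed by -0.05 and Gnf1 by 0.14. RpA-70 and RPA2, which bind unwound DNA, differed by 0.03 ± 0.15 and -0.08 ± 0.21, and Fen1, the nuclease that trims Okazaki fragments, by 0.01 ± 0.16, all within their SE of 0.

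Chromatin assembly and S-phase entry were represented by 2 genes each. Caf1-180, the large subunit gene of the factor that deposits histones on new DNA, had 10.46, 9.83 and 10.46 in delaminating cells, against 10.71, 10.89 and 10.80 in posterior cells. All delaminating values were below all posterior ones, and the difference was -0.55 ± 0.21 (adjusted p = 0.390), or -0.34 without delaminating replicate 2. The gene of its partner subunit, the other CAF-1 gene of the 29, differed by -0.03 ± 0.18. CycE, whose cyclin drives entry into S phase, had 7.90, 8.27 and 7.86 in delaminating cells, against 8.39, 9.07 and 8.25 in posterior cells. The groups overlapped, and the difference of -0.56 carried the largest error of the set, an SE of 0.38. That error is pooled with the anterior arrays, where the SD of CycE was 0.81, against 0.22 in delaminating and 0.44 in posterior cells. Without anterior replicate 3 the SE of the same difference was 0.23. The probe set of CycE may detect more than 1 transcript by its type. Dp differed by -0.03 ± 0.18, or -0.21 without delaminating replicate 2, and RnrL, the large subunit gene of ribonucleotide reductase, which makes the DNA precursors, by -0.05 ± 0.17.

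The arrays set the precision of these values. For 24 of the 29 genes the 95% interval of the difference between delaminating and posterior cells lay within a log2 difference of 1 in either direction. Over the set the intervals reached down to -1.40, for CycE, and up to 0.68, for Psf3. Among called genes of all kinds in this comparison the smallest difference was 0.80, above that of every replication gene. Without delaminating replicate 2, 25 of the 29 differences were below 0, against 49.1% of all genes, and 13 genes had every delaminating value below every posterior value, against 18.3% of all genes, with 0 the other way, against 18.3%. The median difference was then -0.10, against 0.01 over all genes.

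**Figure D4:**
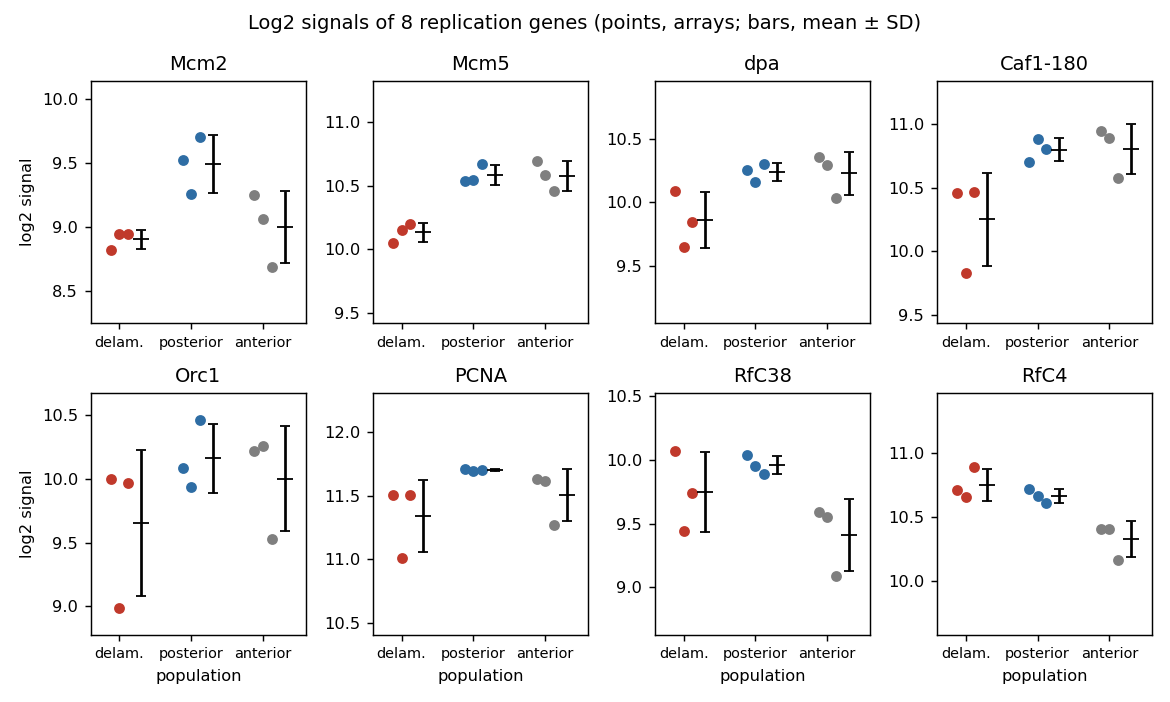
Log2 signals of 8 replication genes on each array (points) with the mean ± SD of each population (n = 3 arrays). Mcm2, Mcm5 and Caf1-180 have every delaminating value below every posterior value, and RfC4 has every delaminating and every posterior value above every anterior value.

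The second comparison set posterior cells against anterior cells. This contrast holds the driven constructs, compartment identity and the cell types of each sorted population together. Fork genes lay higher in posterior cells, with all 8 differences above 0 (7 of 8 without anterior replicate 3), and 5 of the 8 had separate groups. None of the 29 genes passed limma's test, where 0.576% of all genes did (0.0918% higher and 0.484% lower). At an unadjusted p under 0.05 there were 3 higher and 0 lower, against 9.6% of all genes in either direction (5.98% higher and 3.61% lower). Of the 29 differences 25 were above 0, against 60.7% of all genes, and 4 below 0, against 39.3%, with a median of 0.19. The median was 0.09 over all genes and 0.17 over the 5991 brightest genes, which include 23 of the 29. Posterior values lay entirely above anterior values for 10 genes (11.9% of all genes) and entirely below for 1, Cdc6 (6.47%).

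RfC38 and RfC3, both clamp loader subunit genes, had the smallest unadjusted p of the 29 in this comparison. RfC38 had 10.04, 9.95 and 9.89 in posterior cells, against 9.60, 9.55 and 9.09 in anterior cells, a difference of 0.55 ± 0.21 (SE, adjusted p = 0.452). RfC3 had 8.11, 8.13 and 7.79 in posterior cells, against 7.82, 7.52 and 6.88 in anterior cells, a difference of 0.61 ± 0.24 (adjusted p = 0.462). Anterior replicate 3 was the lowest array for both, the groups of RfC3 overlapped, and without that array the differences were 0.39 and 0.35. RfC4 had 10.72, 10.66 and 10.61 in posterior cells, against 10.41, 10.41 and 10.16 in anterior cells. Its groups were apart, with a difference of 0.34 ± 0.16, or 0.26 without anterior replicate 3. Gnf1 differed by 0.04 ± 0.18.

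Mcm2 was the helicase gene with the largest difference between posterior and anterior cells. Its posterior values of 9.52, 9.25 and 9.70 lay just above the anterior values of 9.25, 9.06 and 8.69, a difference of 0.50 ± 0.19 (adjusted p = 0.462), or 0.34 without anterior replicate 3. Mcm5 and dpa differed by 0.01 each, so the order of posterior above anterior cells did not extend to every helicase gene. Without anterior replicate 3, 4 of the 6 helicase differences were below 0. Mcm3 differed by 0.36 ± 0.29, with groups that were just separate, or by 0.10 without anterior replicate 3. PCNA differed by 0.19 ± 0.19, or 0.08 without anterior replicate 3, with separate groups. Also separate were Fen1, which differed by 0.23 ± 0.16, RpA-70 by 0.27 ± 0.15, RnrL by 0.23 ± 0.17, Psf1 by 0.36 ± 0.21 and Orc5 by 0.39 ± 0.24. CycE had 8.39, 9.07 and 8.25 in posterior cells, against 8.61, 8.26 and 7.07 in anterior cells. Its groups overlapped, and the difference of 0.60 ± 0.38 was 0.14 without anterior replicate 3.

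The shift of the set towards posterior cells was smaller without anterior replicate 3. Of the 29 differences 18 were then above 0, against 51.9% of all genes, and their median was 0.07, against 0.01 over all genes. Separate groups numbered 11 higher and 2 lower, against 14.7% and 12.9% of all genes. With the 3 anterior arrays, the intervals reached from -0.66 to 1.43, and 24 of the 29 lay within a log2 difference of 1 in either direction.

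**Figure D5:**
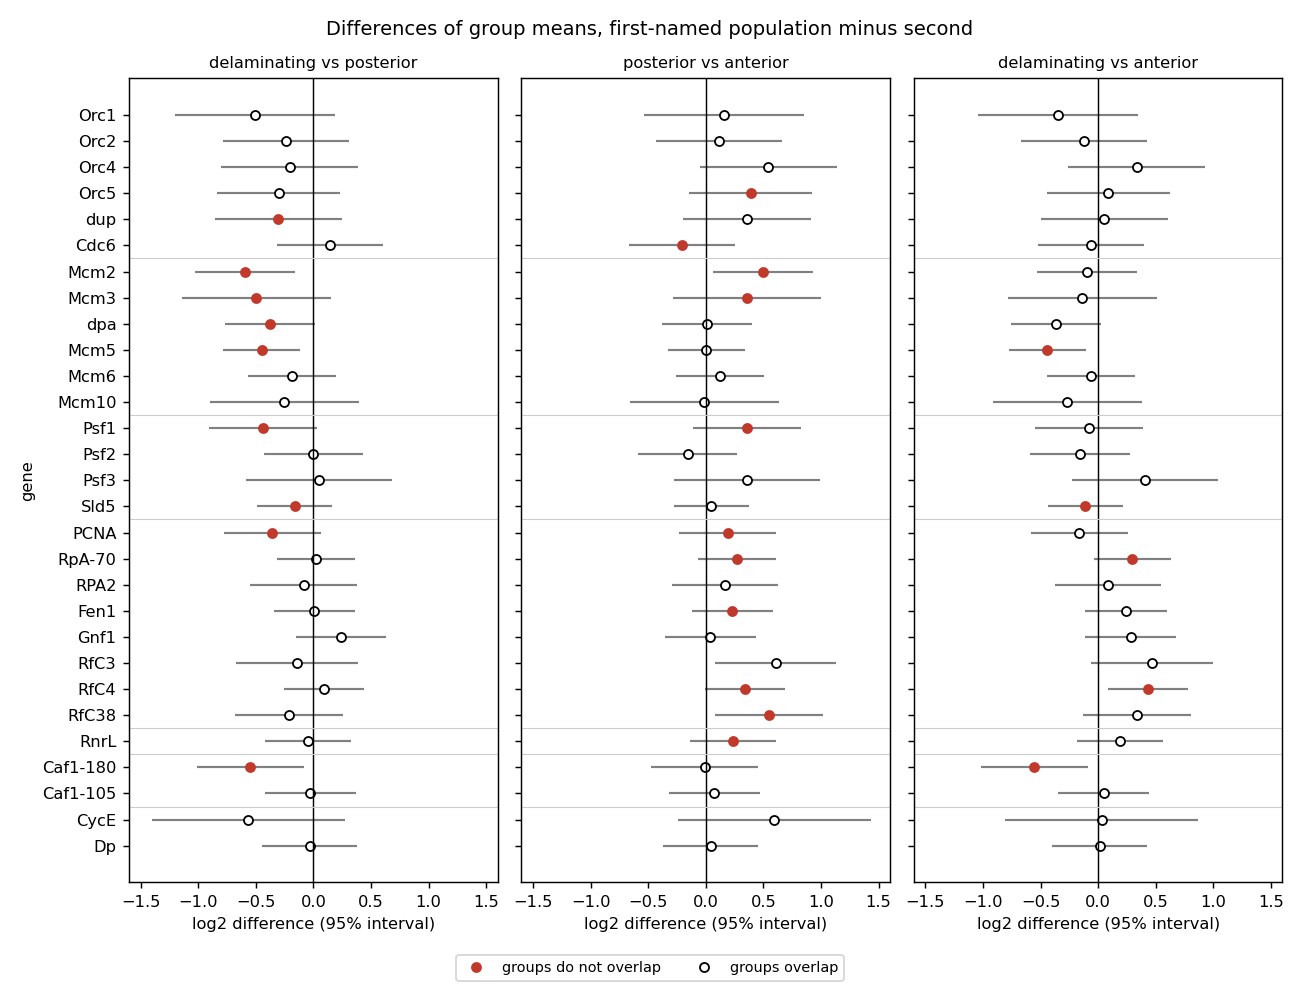
Log2 difference of group means with its 95% interval for each replication gene in the 3 comparisons, filled where the arrays of both populations do not overlap. Delaminating against posterior cells has 9 genes filled below 0, posterior against anterior cells has 10 filled above 0 and 1 below, and delaminating against anterior cells has 2 above and 3 below.

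Delaminating and anterior cells were compared last, a contrast that shares its arrays with both others. The helicase genes lay lower in delaminating cells, with 6 of 6 differences below 0 and 1 of the 6 with separate groups, and the fork genes higher, with 7 of 8 above 0. Without delaminating replicate 2, 5 of 6 helicase differences were below 0, with Mcm3 at 0.16 against -0.14 on all arrays. Without anterior replicate 3, 6 of 6 helicase differences were below 0 and 6 of 8 fork differences above 0. The helicase median was -0.20 on all arrays, -0.19 without delaminating replicate 2 and -0.43 without anterior replicate 3. Over the 29 genes 15 differences were above 0, against 56.2% of all genes, and 14 below 0, against 43.8%. The median was 0.01, against 0.05 over all genes and 0.13 over the 5991 brightest genes, which include 23 of the 29. None passed limma's test, which called 3.82% of all genes (2.4% higher and 1.43% lower). At an unadjusted p under 0.05 there were 1 higher and 2 lower, against 16.6% of all genes in either direction (10.8% higher and 5.77% lower). Groups were separate for 2 genes higher (13.2% of all genes) and 3 lower (8.05%). Without anterior replicate 3 the median was -0.09, against 6e-04 over all genes, and 17 differences were below 0, against 49.9% of all genes. There were then 2 genes separate higher (17.7% of all genes) and 10 lower (17.3%). Without delaminating replicate 2 the median was 0.08, against 0.07 over all genes, with 7 genes separate higher (20.8%) and 5 lower (11.5%).

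Mcm5 had the smallest p of the set, with 10.05, 10.15 and 10.20 in delaminating cells, against 10.69, 10.58 and 10.45 in anterior cells. No delaminating value reached an anterior one, and the difference was -0.44 ± 0.15 (adjusted p = 0.162). Caf1-180 had 10.46, 9.83 and 10.46 in delaminating cells, against 10.95, 10.89 and 10.58 in anterior cells, a difference of -0.55 ± 0.21 (adjusted p = 0.214). Its difference was -0.34 without delaminating replicate 2 and -0.67 without anterior replicate 3. The difference of dpa was -0.36 ± 0.17 and that of Orc1 -0.35 ± 0.31, with overlapping groups, and that of Orc1 was -0.02 without delaminating replicate 2. Sld5 was the third gene with separate groups in this direction, with a difference of -0.11 ± 0.15. RfC4 ran the other way, with 10.71, 10.66 and 10.89 in delaminating cells, against 10.41, 10.41 and 10.16 in anterior cells, a difference of 0.43 ± 0.16 (adjusted p = 0.195). RpA-70 was also apart, at 11.56, 11.66 and 11.58 in delaminating cells, against 11.44, 11.31 and 11.16 in anterior cells, a difference of 0.30 ± 0.15. With array weights 4 of the 29 were called, in a setting that called 16.5% of all genes. They were Mcm5 (-0.52, adjusted p = 0.00713), Caf1-180 (-0.48, 0.0259, range over the alternatives 0.0259 to 0.422), Mcm10 (-0.89, 0.0129, range 0.0129 to 0.970) and RfC4 (0.35, 0.0447, range 0.0447 to 0.426). Without weights Mcm10 differed by -0.27 ± 0.29 (limma adjusted p = 0.677), and its signals lay below the lower quartile on 4 of 9 arrays. The arrays with the largest weights, delaminating replicate 1 and anterior replicate 2, held its lowest and highest signals, 5.97 and 7.14. Mcm5 was also called after a further quantile normalization (-0.56, adjusted p = 0.0456, range over the alternatives 0.00713 to 0.375), a setting that called 4.18% of all genes and where the median of the 29 genes was -0.06.

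Other genes of replication were read from a list of polymerases and fork proteins that are not among the 29. Of 21 measured, 17 lay lower in delaminating than in posterior cells (50.5% of all genes), 11 of them with separate groups (11.5%). Of the 21, 0 passed limma's test (0.801% of all genes), with 4 lower at an unadjusted p under 0.05 (4.67%). Their median difference was -0.29, against -0.21 for the 29 genes. DNApol-epsilon255, the catalytic subunit gene of the leading strand polymerase, had 8.74, 8.45 and 8.31 in delaminating cells, against 8.86, 9.48 and 9.07 in posterior cells (-0.64 ± 0.20, adjusted p = 0.268). PolE2 of the same enzyme had 8.49, 8.45 and 8.47 in delaminating cells, against 9.08, 9.05 and 8.84 in posterior cells (-0.52 ± 0.18, adjusted p = 0.309). PolD2, of the lagging strand polymerase, had 8.29, 8.31 and 8.73 in delaminating cells, against 8.81, 9.01 and 9.25 in posterior cells (-0.58 ± 0.19, adjusted p = 0.295). These 3 genes were separate between the groups in the same direction. Between posterior and anterior cells 16 of the 21 lay higher (60.7% of all genes), and between delaminating and anterior cells 14 lay lower (43.8%). Limma called 0 of them in these comparisons (0.576% and 3.82%). mus101 acts at replication forks and in the damage checkpoint. It was higher by 0.95 ± 0.28 in delaminating than in anterior cells (limma adjusted p = 0.108). Between posterior and anterior cells it differed by 0.81 ± 0.28 (adjusted p = 0.417). Anterior replicate 3 was its lowest array. Its mean signal was 5.54 over the 9 arrays, below their lower quartiles of 6.39 to 6.53.

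Among 19 measured genes of cell cycle control, 11 lay lower in delaminating than in posterior cells (50.5% of all genes), with a median of -0.11. In posterior against anterior cells 17 lay higher (60.7%), with a median of 0.31. That median was 0.09 over all genes and 0.17 over the 5991 brightest genes. Limma called 0 in these comparisons (0.801% and 0.576% of all genes). At an unadjusted p under 0.05 there were 0 between delaminating and posterior cells (9.98% of all genes), and 4 higher in posterior than in anterior cells (5.98%). Cdk2, the kinase partner of Cyclin E, had 11.05, 10.85 and 10.87 in delaminating cells, 11.16, 10.96 and 10.96 in posterior cells, and 10.79, 10.40 and 10.13 in anterior cells. Every anterior value was thus the lower, and posterior differed from anterior cells by 0.59 ± 0.19 (adjusted p = 0.384). Cks30A, a small partner of cyclin-dependent kinases, differed by 0.45 ± 0.16 between posterior and anterior cells. Between delaminating and anterior cells Cdk4, the kinase partner of Cyclin D, differed by 0.47 ± 0.18. In the same comparison cul-4, a ubiquitin ligase scaffold that acts in the turnover of licensing factors, differed by 0.52 ± 0.19. Both had separate groups. Anterior replicate 3 was the lowest of the 9 arrays for Cdk2, Cks30A, Cdk4 and cul-4. Values without it are not given for this list, so how far its median of 0.31 rests on that array is not shown. Of 7 genes of nucleotide supply and chromatin, dUTPase, which keeps uracil out of DNA, had 11.46, 11.58 and 11.46 in delaminating cells, against 11.75, 11.96 and 11.92 in posterior cells (-0.37 ± 0.15, adjusted p = 0.414). Limma called 0 of the 7 in any comparison. At an unadjusted p under 0.05 there were 2 lower in delaminating against posterior cells (4.67% of all genes) and 1 higher, the histone chaperone gene asf1 (0.43 ± 0.18), in delaminating against anterior cells (10.8%). Between delaminating and posterior cells dnk, a deoxyribonucleoside kinase, was the other of the 2, with a difference of -0.41 ± 0.18.

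Markers of other cell types were read in the same groups. Of 13 hemocyte markers 11 lay above 0 in delaminating against posterior cells (49.5% of all genes), with 0 called (0.801%). In posterior against anterior cells 6 lay above 0 (60.7%) and 7 below (39.3%), with 1 called lower (0.484%). In delaminating against anterior cells 10 lay above 0 (56.2%) and 3 below (43.8%), with 1 called lower (1.43%). Their mean was 7.88, 9.97 and 7.70 in delaminating cells, against 7.58, 8.02 and 7.02 in posterior cells. It was 7.94, 8.61 and 7.73 in anterior cells. Their high value is that of the delaminating array on which Orc1, Mcm3, PCNA and Caf1-180 were lowest. Of the replication genes, that array had the lowest delaminating value for 16 and the highest for 10, among them Gnf1 and Dp. Markers of muscle precursors, the mesodermal cells under the notum, averaged 6.60 to 7.23 in delaminating, 7.09 to 7.85 in posterior and 10.53 to 10.86 in anterior cells. In posterior against anterior cells 6 of 6 were lower (39.3% of all genes) and 4 called (0.484%). In delaminating against anterior cells 6 of 6 were called lower (1.43%). In delaminating against posterior cells 5 were lower and 1 higher, with 2 called lower (0.159%). The 4 glia markers averaged 8.59 to 8.65 in delaminating, 7.95 to 8.03 in posterior and 6.73 to 7.68 in anterior cells, while repo, which defines glia, stayed between 4.98 and 5.75 on all arrays, below the lower quartiles. Their part in the differences of the replication genes was not tested.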

How the data were processed

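Cells were sorted by the authors by RFP and GFP, and their RNA was amplified as cDNA and labelled with biotin, per the labels' protocols. The deposited values are log2 signals per probe set, made by the authors with RMA, per the submitters' processing notes; its version is not given in the sources used here. They were used without further scaling. Of 18952 probe sets, 183 controls were left out, and 13647 carried 1 gene symbol. Symbols were updated through gene identifiers to RefSeq (assembly GCF_000001215.4), and the brightest probe set stood for each of 11982 genes.

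limma 3.58.1 in R 4.3.3 fitted a mean per population to all 9 arrays. The moderated test was two-sided and adjusted by Benjamini-Hochberg over all genes, and genes under 0.05 are named as called. SE and 95% intervals are moderated. Groups are called separate where all 3 values of 1 population lie above all 3 of the other. The fit was tested on simulated data. The number of arrays limits the precision. The p-values rest on the spread between replicates within populations, which the labels call biological. That spread is pooled over all 9 arrays and moderated over all genes. The error of each comparison thus also holds the spread of the population outside it. The members, gene lists and tests were chosen with earlier results of these data known. All 29 members are described, and up to 4 genes of each other list are named by smallest p. Sequences and genome positions were not used here. Figures were drawn with matplotlib 3.10.9.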

Additional observations from a re-analysis of the deposited data

How the results depend on the processing

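The 29 genes were refitted under 19 alternative settings, and of their 1653 differences 7 gained a call and 0 changed sign with a call in either setting. The sign of 101 differences changed where neither setting called them. Members called moved above 0 in 3 cases, to 2 in delaminating against posterior and 4 in delaminating against anterior cells with array weights, and to 1 in delaminating against anterior cells with a further quantile normalization. Over all genes, delaminating against posterior had 96 calls, and 749 with array weights, 185 with only the compared groups, 270 without delaminating replicate 2 and anterior replicate 3, and 17 to 281 when each array was left out. Posterior against anterior had 69, and 427 with array weights, 129 with every probe set tested, 102 without delaminating replicate 2 and anterior replicate 3, and 35 to 88 with an array left out. Delaminating against anterior had 458, and 1974 with array weights, 180 with only the compared groups, 709 with every probe set tested, 621 without delaminating replicate 2 and anterior replicate 3, and 212 to 567 with an array left out. The median difference of the members ranged with an array left out from -0.23 to -0.10, 0.07 to 0.27 and -0.09 to 0.08 in the same order. Replicate numbers were not shown to pair the arrays, since deviations of same-numbered arrays correlated between -0.12 and 0.18. With a replicate block 66, 59 and 377 genes were called, and 0 members. Genes separate in delaminating against anterior cells, an alternative chosen after seeing the data, numbered 7 higher and 5 lower without delaminating replicate 2 (20.8% and 11.5% of all genes), 2 and 10 without anterior replicate 3 (17.7% and 17.3%), and 7 and 15 without both (26.8% and 24%). Causes of these changes were not tested.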
